A study of Mus musculus with 8 samples.

Results

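The receptor chains and Janus kinases of the interleukin-2 family were described in RNA from mouse cells whose label is pro-B cell. The group was 9 genes chosen by name: the receptor chains Il2ra, Il2rb, Il2rg, Il15ra, Il4ra, Il21r and Il9r, and the kinases Jak1 and Jak3. All 9 were found among the 55487 genes of the table, and all 9 were among the 18884 genes with enough counts to be tested. The study compared 4 libraries whose genotype label is CD25_KO with 4 libraries labelled WT. Il2ra encodes CD25, the alpha chain that raises the affinity of the receptor for interleukin-2. The labels name no strain, age or sex, no design of the knockout allele and no Cre driver. They do not say how the cells were sorted or whether animals were pooled, nor that the libraries of a group came from separate animals. The p-values therefore measure only the spread between these libraries, which may be technical in part.

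Cytokines of this family are read by receptors that share the common gamma chain, Il2rg. A second chain sets which cytokine is bound: Il2rb for interleukin-2 and interleukin-15, Il4ra for interleukin-4, Il21r for interleukin-21 and Il9r for interleukin-9. Il2ra and Il15ra encode alpha chains that help capture interleukin-2 and interleukin-15 and carry no signal through the kinases. Jak1 sits on the cytokine-specific signalling chain and Jak3 on the gamma chain, and together they activate STAT factors. In the B lineage the best known user of the gamma chain is the interleukin-7 receptor, and CD25 on the surface is a classical marker of pre-B cells.

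The libraries held from 43974037 to 57988772 counts. Il7r, a receptor chain of early B cells, was abundant at 498 to 592 CPM (counts per library scaled to its size). Of the markers of the pro-B and pre-B stages, Rag1 had 205 to 389 CPM, Igll1 38.8 to 206 CPM, Vpreb1 30.8 to 151 CPM, Dntt 16.1 to 119 CPM and Kit 0.701 to 3.20 CPM. The kappa constant gene Igkc, which is transcribed from the pre-B stage on, had 2734 to 3935 CPM. Several libraries stood apart. Labelled knockout 2, labelled knockout 4 and wild type 2 held 505, 505 and 483 CPM over 4 Y-linked genes. Labelled knockout 1 and 3 and wild type 1, 3 and 4 held at most 2.79 CPM of them. Wild type 2 also held 60.0 CPM of Xist, the X-inactivation transcript, against 370 to 482 CPM in wild type 1, 3 and 4, so this library carries transcripts of both sexes. Across all genes 0 of 18884 (0%) passed edgeR's quasi-likelihood test at an adjusted p of 0.05 (Benjamini-Hochberg), and 2388 (12.6%) had an unadjusted p under 0.05. Without wild type 4 edgeR called 363 of 19506 genes tested.

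Il2ra transcript was present in every library labelled knockout and did not differ from wild type by more than the spread between libraries. Il2ra (ENSMUSG00000026770.5) lies on the plus strand of chromosome 2, from 11642807 to 11693193 in mm10. Its level was 144.7, 168.3, 243.7 and 168.3 CPM in labelled knockout 1 to 4, against 200.2, 216.4, 215.6 and 140.4 CPM in wild type 1 to 4. The highest library was labelled knockout 3 and the lowest was wild type 4, so the groups overlapped over most of their range. The ratio was 0.938, with a 95% interval from 0.704 to 1.25 (edgeR's quasi-likelihood test, adjusted p = 0.849). The log2 fold change was -0.22 without wild type 4 and 0.01 without wild type 2. Counts were summed over all exons, so a deletion of single exons that leaves the transcript in place would not be seen. For this reason the group is called labelled knockout, and each direction given here rests on that label.

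The promoter of Il2ra is shown because the gene named in the genotype was still transcribed in the libraries labelled knockout. The 250 bases before the RefSeq start site, at chr2:11642542-11642791 on the plus strand of GRCm38.p6, read 5′ to 3′:
Il2ra: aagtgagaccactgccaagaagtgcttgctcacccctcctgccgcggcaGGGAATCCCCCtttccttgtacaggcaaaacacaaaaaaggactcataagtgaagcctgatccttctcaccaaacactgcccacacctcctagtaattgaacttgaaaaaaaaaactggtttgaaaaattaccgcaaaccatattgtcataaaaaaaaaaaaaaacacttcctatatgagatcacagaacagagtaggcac
Capitals mark 2 overlapping matches to a loose form of the NF-kB motif, GGG and CC with 5 bases between them. It was searched on both strands and is present in 50.8% of 32851 promoter windows of 300 bases, so a match is common. STAT motifs, TTC and GAA with 3 or 4 bases between them and the same on both strands, occur in 8.30% and 6.95% of these windows. Neither occurs in the windows of the 8 members with an entry in the RefSeq table, which were Il2ra, Il2rg, Il15ra, Il4ra, Il21r, Il9r, Jak1 and Jak3.

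Per exon length, the chains Il2rg, Il2ra, Il21r and Il4ra were well transcribed, while Il15ra, the beta chain Il2rb and Il9r were lower. Levels between genes are given as TPM, transcripts scaled to library size, computed from the counts and the summed exon length of each gene, as medians over the 8 libraries. Il2rg led with 87.6 TPM, followed by Il2ra with 69.2 TPM, Il21r with 67.8 TPM, Jak1 with 55.2 TPM and Il4ra with 41.8 TPM. Il2rg was above Il2ra in 8 of 8 libraries. Il2ra and Il21r could not be ordered, since Il2ra was the higher in 5 of 8 libraries and their medians differed 1.02-fold. Il21r was above Jak1 in 6 of 8 libraries and Jak1 above Il4ra in 7 of 8, with overlapping ranges in both pairs. A gap of 5.29-fold then separated Il4ra from Il15ra, whose ranges did not overlap. Il15ra had 7.90 TPM, Jak3 had 4.66 TPM and Il2rb had 2.36 TPM. Il15ra was above Jak3 in 8 of 8 libraries, while Jak3 was above Il2rb in 5 of 8. That order held in 4 of 4 libraries labelled knockout and in 1 of 4 wild type libraries, where Il2rb was otherwise the higher. Il9r came last with 0.105 TPM and ranges that did not overlap those of Il2rb. Among the genes tested, 90.8% had a lower median TPM than Il2rg, 35.6% a lower one than Il2rb and 3.40% a lower one than Il9r. For scale, Il7r, the chain that signals with the gamma chain for interleukin-7, had a median of 253 TPM.

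**Figure D1:**
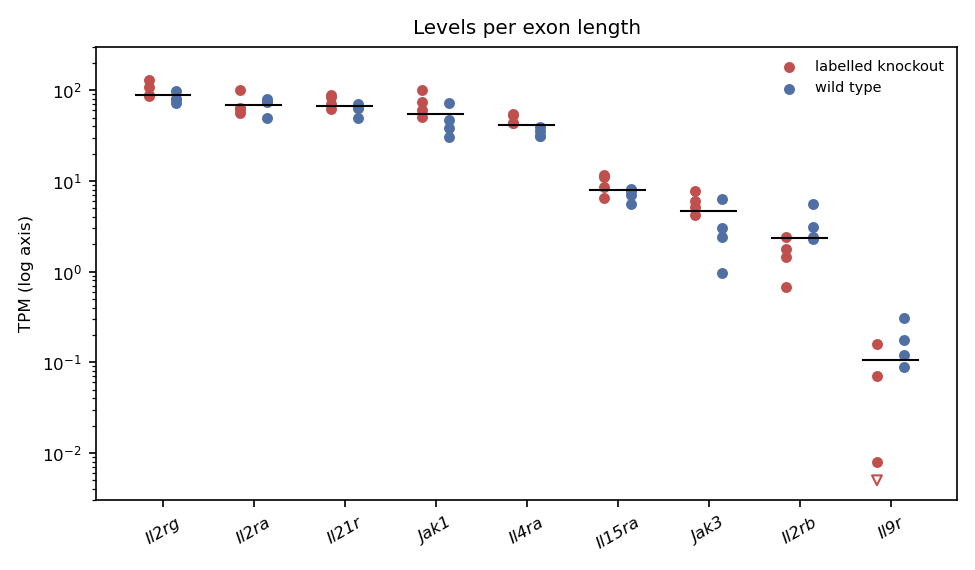
TPM (log axis) of the 9 genes, ordered by the median over 8 libraries (black line), with the libraries labelled knockout on the left of each gene and wild type on the right. The 5 genes on the left lie between 30.5 and 129 TPM, and the open triangle is a library in which Il9r had 0 counts.

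Il2rb, the signalling chain shared by the interleukin-2 and interleukin-15 receptors, was lower by value in the libraries labelled knockout under every alternative run. Il2rb (ENSMUSG00000068227.9, minus strand of chromosome 15, 78479256 to 78495271) had 2.78, 4.93, 1.22 and 3.53 CPM in labelled knockout 1 to 4, against 10.9, 6.22, 5.27 and 4.89 CPM in wild type 1 to 4. The groups overlapped only in that labelled knockout 2 lay just above wild type 4. The means were 3.12 ± 1.55 CPM in the libraries labelled knockout and 6.83 ± 2.79 CPM in wild type (SD, n = 4 each). The log2 fold change was -1.13 ± 0.41 (SE), with a 95% interval from -2.04 to -0.22, and edgeR's adjusted p was 0.391. The unadjusted p was 0.0204, on the lower side, where 7.11% of all genes had a p under 0.05. Without wild type 1, the library with the most Il2rb, the log2 fold change was -0.81 and the unadjusted p 0.0736 (edgeR, adjusted p = 0.511). Set against its partner chain, the TPM ratio of Il2rb to Il2rg was 0.0133, 0.0272, 0.00523 and 0.0208 in labelled knockout 1 to 4. In wild type 1 to 4 it was 0.0568, 0.0379, 0.0301 and 0.0313, so the ratios did not overlap, and the beta chain was the lower of the 2 in every library. The TPM ratio of Il15ra to Il2rb did not overlap either, at 3.52 to 17.1 in the libraries labelled knockout and 1.45 to 3.07 in wild type. That of Il2ra to Il2rb did overlap, at 25.6 to 149.7 and 13.7 to 30.7. The share of all gene pairs whose ratios separate the groups was not computed.

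Natural killer cells carry Il2rb on their surface. A list of 15 natural killer and innate lymphoid markers, without Il2rb, had 14 tested genes, of which 12 were lower and 2 higher in the libraries labelled knockout, and 0 passed. Their summed level was 17.3, 39.3, 10.7 and 39.6 CPM in labelled knockout 1 to 4, against 60.5, 47.5, 45.1 and 42.5 CPM in wild type 1 to 4. The lowest sums were those of labelled knockout 3 and 1, the 2 libraries with the least Il2rb, and the highest was that of wild type 1, the library with the most. Single markers differed in this: Prf1, which encodes perforin, had its highest value in labelled knockout 3, and its log2 fold change was -0.02. No marker was at 0 in every library, and Ncr1, which encodes the receptor NKp46, averaged 2.03 ± 1.22 CPM in the libraries labelled knockout and 4.23 ± 0.825 CPM in wild type (SD, n = 4 each). Markers with a mean under 5 CPM, Ncr1 among them, were left out of the next comparison. Among 9167 genes compared, the one whose pattern over the 8 libraries was most like that of Il2rb was Nkg7, a granule membrane gene of cytotoxic lymphocytes. Their centred log2 CPM differed by a root mean square of 0.31, where Il2rb itself deviated by 0.86. Fxyd5, the kinetochore gene Kntc1, Gimap4 and the mitotic kinase gene Mastl followed, at 0.32 to 0.37. Of the T cell markers, Cd3e and Bcl11b were at 0.13 and 0.18 CPM at most, while Trbc1 and Trbc2 reached 4.12 and 3.92 CPM in wild type 1. The T cell list summed to 4.73 to 10.7 CPM in the libraries labelled knockout and 7.41 to 17.4 CPM in wild type. Its highest sum was also that of wild type 1. Of 14 T cell markers 10 were tested, with 7 lower and 3 higher values and 0 past the test. Neutrophil markers (8 of 8 lower) summed to 116 to 469 CPM against 246 to 544 CPM, monocyte and macrophage markers (6 of 7 lower) to 38.5 to 162 CPM against 126 to 221 CPM, and erythroid markers (6 of 7 tested lower) to 265 to 2276 CPM against 2893 to 8636 CPM, libraries labelled knockout against wild type, with 0 past the test in each list. In each of these lists labelled knockout 1 and 3 again had the lowest sums. They were 168 and 116 CPM for neutrophil, 89.35 and 38.5 CPM for monocyte and macrophage, and 265 and 893 CPM for erythroid markers. The low sums of these libraries were therefore not particular to the natural killer list. All 8 genes of a cell division list were lower by value, 0 passed, and their sum was 825 to 1990 CPM in the libraries labelled knockout against 2164 to 2343 CPM in wild type. The lowest of these sums were again in labelled knockout 3 and 1, at 825 and 1191 CPM. Among the wild type libraries, whose sums lay close together, wild type 4 had the highest sum and the least Il2rb. Of 10 pro-B and pre-B markers 4 were higher and 6 lower by value, 0 passed, and their sum was 5535 to 6830 CPM in the libraries labelled knockout and 5288 to 6257 CPM in wild type. Igll1, a surrogate light chain gene, averaged 86.5 ± 51.3 CPM in the libraries labelled knockout and 163 ± 55.4 CPM in wild type (SD, n = 4 each). Vpreb1, the other such gene, averaged 61.4 ± 32.3 CPM in the libraries labelled knockout and 112 ± 40.7 CPM in wild type (SD, n = 4 each). Dntt, which encodes terminal transferase, averaged 42.1 ± 27.1 CPM in the libraries labelled knockout and 79.3 ± 38.8 CPM in wild type (SD, n = 4 each). For Igll1, Vpreb1 and Dntt, as for Il2rb, labelled knockout 3 was the lowest library, and the groups overlapped. Fewer cells of a type and less RNA per cell cannot be told apart in bulk RNA, and the part of these transcripts in the Il2rb values was not tested.

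**Figure D2:**
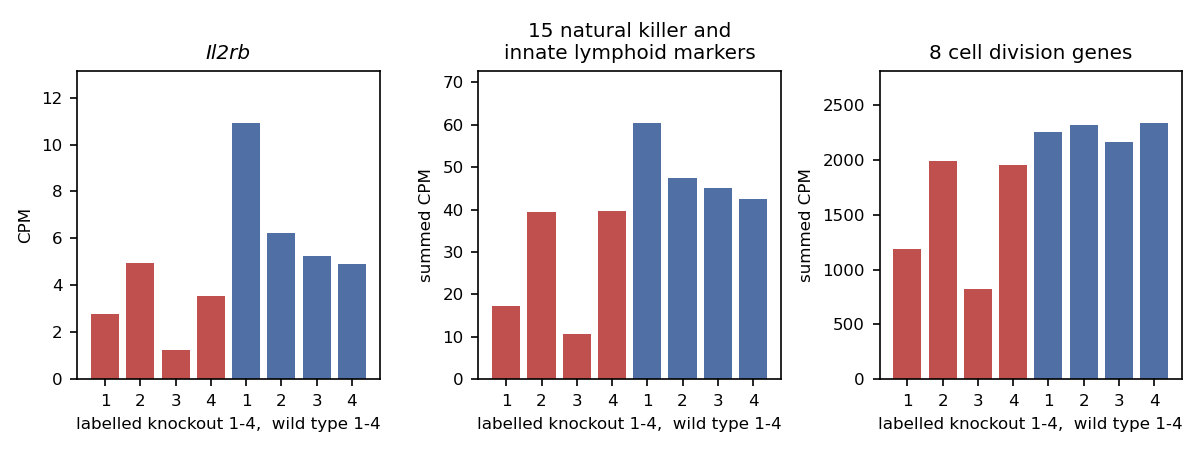
Il2rb (CPM), the summed CPM of 15 natural killer and innate lymphoid markers, and the summed CPM of 8 cell division genes in each library (bars; red, labelled knockout 1 to 4; blue, wild type 1 to 4). Labelled knockout 1 and 3 have the lowest bars in all 3 panels, and wild type 1 has the highest in the first 2.

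Il4ra, the interleukin-4 binding chain, was the 1 member whose groups did not overlap. Il4ra (ENSMUSG00000030748.9, plus strand of chromosome 7, 125552120 to 125579474) had 142, 124, 138 and 122 CPM in labelled knockout 1 to 4, against 110, 89.3, 107 and 93.5 CPM in wild type 1 to 4. Each library labelled knockout was above each wild type library, as for 2.62% of all genes tested. The ratio was 1.32, with a 95% interval from 1.12 to 1.55. The log2 fold change was 0.40 ± 0.10 (SE), with an unadjusted p of 0.0036 and an adjusted p of 0.391 by edgeR. By unadjusted p it ranked 48 of 18884 genes, and 5.53% of all genes had a p under 0.05 on the higher side.

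Il21r, the interleukin-21 binding chain, is the next member along the chromosome, 24.0 kb after Il4ra on the same strand (ENSMUSG00000030745.9, 125603429 to 125633570). It had 126, 112, 125 and 95.2 CPM in labelled knockout 1 to 4, against 98.3, 112, 106 and 81.8 CPM in wild type 1 to 4. The groups overlapped, and the log2 fold change of 0.20 ± 0.13 (SE) had a 95% interval from -0.09 to 0.49 and an adjusted p of 0.509 (edgeR). Il4ra and Il21r are both well known on mature B cells. Later B cell markers split evenly, with 5 of 10 higher and 5 lower and 0 past the test, and their sum was 2890 to 3523 CPM in the libraries labelled knockout and 2729 to 3354 CPM in wild type.

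Il2rg, the shared gamma chain, is X-linked (ENSMUSG00000031304.18, minus strand, 101264378 to 101268255). It had 116, 101, 130 and 94.6 CPM in labelled knockout 1 to 4, against 107, 91.3, 97.3 and 87.0 CPM in wild type 1 to 4. The 2 libraries with the highest values, labelled knockout 3 and 1, held Xist and almost no Y-linked counts, and so did wild type 4 with the lowest. On the log2 scale the fold change was 0.21 ± 0.12 (SE; 95% interval from -0.07 to 0.48, adjusted p = 0.479, edgeR). With a term for Y-linked counts in the model it was 0.25, with an adjusted p of 0.168. The predicted gene Gm20489 shares 30.5% of the exon bases of Il2rg and had 0 counts in every library. The header gives no option to count fragments that fall on 2 genes, so fragments on those bases can be missing from Il2rg in all 8 libraries. The same can hold for 9.51% of the exon bases of Il4ra, shared with Gm44876 on the other strand. It can also hold for 7.55% of those of Jak3, shared with Insl3.

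Il15ra, the high affinity chain for interleukin-15, lies 12.1 kb after Il2ra on the same strand (ENSMUSG00000023206.16, chromosome 2, 11705290 to 11734317). It had 22.1, 18, 21.7 and 13.2 CPM in labelled knockout 1 to 4, against 16.5, 16.3, 12.4 and 15.6 CPM in wild type 1 to 4. Labelled knockout 1 to 3 lay above every wild type library and labelled knockout 4 below 3 of them. Its log2 fold change was 0.30 ± 0.19 (SE; 95% interval from -0.11 to 0.72, adjusted p = 0.489, edgeR). Of 15 tested genes within 500 kb of Il2ra, 7 were higher and 8 lower by value and 0 passed. Since 0 of all 18884 genes passed, that 0 says nothing particular to the region. The 3 with the smallest unadjusted p were Gm13260, Gm13310 and Il15ra. Gm13260 had 0.330 ± 0.0586 CPM in the libraries labelled knockout and 0.713 ± 0.262 CPM in wild type (SD, n = 4 each). Gm13310 had 1.93 ± 0.868 CPM in the libraries labelled knockout and 3.26 ± 0.231 CPM in wild type (SD, n = 4 each). For both of these predicted genes, 2 of the 15, the groups did not overlap, where all genes gave 4.17% on the lower side.

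Il9r, the interleukin-9 receptor chain, was at the limit of detection (ENSMUSG00000020279.10, minus strand of chromosome 11, 32187541 to 32200279). It had 17, 1, 0 and 9 counts in labelled knockout 1 to 4, against 31, 16, 10 and 24 counts in wild type 1 to 4. A count of 0 in labelled knockout 3 allows a level of up to 0.0601 CPM (3 counts, counting error only). Labelled knockout 1 lay above wild type 2 and 3, so the groups overlapped. The 95% interval of the log2 fold change ran from -3.71 to 0.49 (edgeR, adjusted p = 0.476), and no difference was detectable at this depth.

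**Figure D3:**
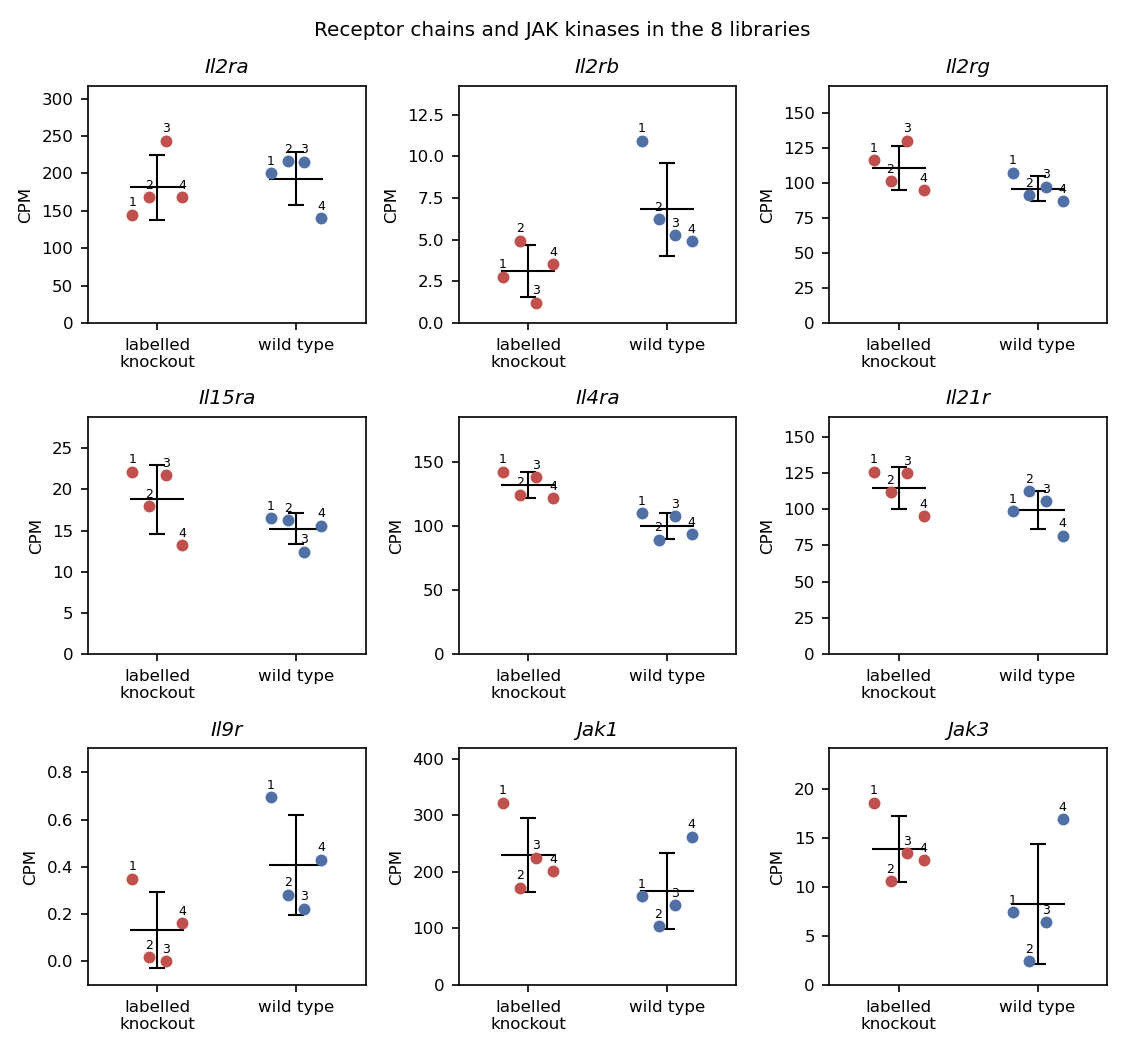
CPM of each of the 9 genes in every library (points numbered by replicate; red, labelled knockout; blue, wild type), with the mean and SD of each group (n = 4) in black. Only Il4ra has no overlap between the groups, at 122 to 142 CPM in the libraries labelled knockout and 89.3 to 110 CPM in wild type.

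The 2 kinases spread widely between libraries of 1 group. Jak1 (ENSMUSG00000028530.14, minus strand of chromosome 4, 101152367 to 101265282) had 322, 172, 225 and 201 CPM in labelled knockout 1 to 4, against 157, 104, 141 and 262 CPM in wild type 1 to 4. Jak3 (ENSMUSG00000031805.17, plus strand of chromosome 8, 71676296 to 71690575) had 18.6, 10.6, 13.5 and 12.7 CPM in labelled knockout 1 to 4, against 7.42, 2.43, 6.43 and 16.9 CPM in wild type 1 to 4. For both kinases labelled knockout 1 was the highest library, wild type 4 the second highest and wild type 2 the lowest. All 4 libraries labelled knockout lay above wild type 1, 2 and 3 for both genes, and only wild type 4 crossed into their range. The log2 fold change of Jak1 was 0.47 ± 0.28 (SE; 95% interval from -0.16 to 1.10, adjusted p = 0.483, edgeR). That of Jak3 was 0.74 ± 0.47 (SE; 95% interval from -0.31 to 1.79, adjusted p = 0.504, edgeR). Single libraries moved both. Without wild type 4 they were 0.78 for Jak1 (adjusted p = 0.0732) and 1.36 for Jak3 (adjusted p = 0.0627), and without wild type 2 they were 0.33 and 0.45 (adjusted p = 0.766 and adjusted p = 0.76, edgeR). Without labelled knockout 1, Jak1 was at 0.26 (adjusted p = 0.849). The TPM ratio of Jak3 to Jak1 was 0.0780 to 0.0856 in the libraries labelled knockout and 0.0315 to 0.0871 in wild type.

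Taking the 9 genes as a list, the libraries labelled knockout were higher for 6 and lower for 3, and the median of the log2 fold changes was 0.21. Over all genes tested 50.4% were higher by value and the median was 0.00. By edgeR 0 of 9 passed the adjusted test (0% of all genes), and 2 had an unadjusted p under 0.05, Il4ra on the higher and Il2rb on the lower side. Groups did not overlap for 1 member on the higher side and 0 on the lower side, where all genes gave 2.62% and 4.17%. DESeq2's Wald test also called 0, with an unadjusted p under 0.05 for 2 members and for 2620 of 45851 genes. For limma-voom with quality weights, which called 0 as well, these were 5 members and 3763 of 18884 genes, against 2388 genes with edgeR. A combination chosen after seeing the data left out wild type 4 and added a term for Y-linked counts. By edgeR 3112 of 19506 genes tested then passed, among them 4 of the 9 members. These were Jak1 (log2 fold change 0.86, adjusted p = 0.00386), Jak3 (1.60, adjusted p = 0.00397), Il4ra (0.41, adjusted p = 0.0129) and Il2rb (-1.45, adjusted p = 0.0478). That term parts labelled knockout 1 and 3 from 2 and 4. Without labelled knockout 1 and 3 the log2 fold changes were 0.28 for Il4ra, -0.70 for Il2rb, 0.16 for Jak1 and 0.49 for Jak3, and 0 members passed (smallest adjusted p = 0.995).

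**Figure D4:**
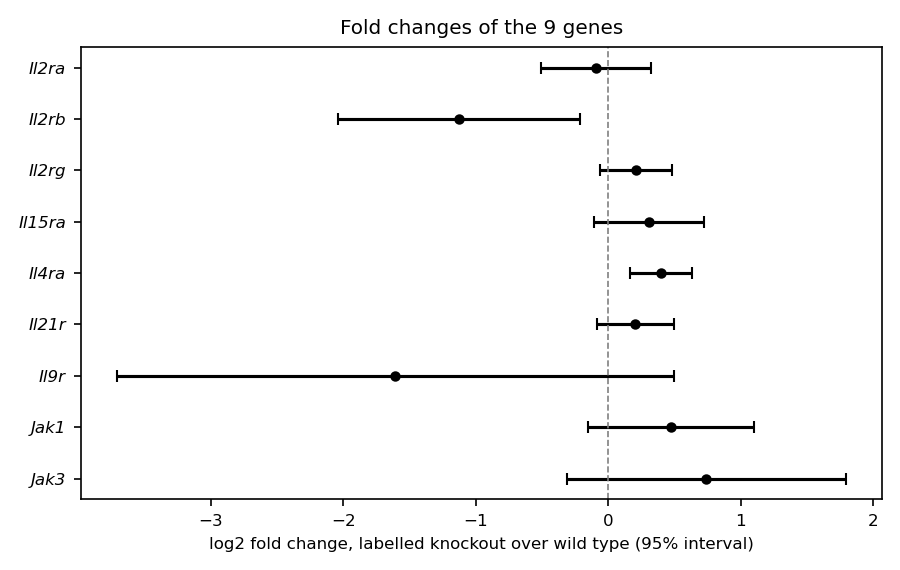
Log2 fold change of the 9 genes, libraries labelled knockout over wild type, with 95% intervals from edgeR (n = 4 libraries each; dashed line, no difference). Only the intervals of Il4ra (0.16 to 0.63) and Il2rb (-2.04 to -0.22) leave out 0, before adjustment over all genes.

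The rest of the pathway was read from a list of 28 genes, of which 23 were tested. The libraries labelled knockout were higher for 17 of these and lower for 6, the median of the log2 fold changes was 0.09, and 0 passed by edgeR. At an unadjusted p under 0.05 there were 6 higher genes and 0 lower ones, where all genes gave 5.53% and 7.11%. Groups did not overlap for 3 genes, all higher in the libraries labelled knockout, where all genes gave 2.62%. Among the ligands, Il15 had a median of 10.95 TPM over the 8 libraries, above Il15ra (7.90 TPM), Jak3 (4.66 TPM) and Il2rb (2.36 TPM). The median of Il2 was 4.604 TPM, between those of Jak3 and Il2rb. The other ligands were low or not detected. Il15 had 11.6 ± 1.19 CPM in the libraries labelled knockout and 11.3 ± 1.21 CPM in wild type, and Il2 had 2.33 ± 0.0819 CPM in the libraries labelled knockout and 2.44 ± 0.344 CPM in wild type (SD, n = 4 each). Il7 was at 0.0801 to 0.350 CPM in the libraries labelled knockout and 0.0359 to 0.650 CPM in wild type. Il4, Il13, Il21 and Tslp were below the filter, and Il9 was at 0 in all libraries.

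Il7r itself did not differ by more than the spread between libraries, at 539 ± 43.0 CPM in the libraries labelled knockout and 547 ± 21.1 CPM in wild type (SD, n = 4 each). The 3 genes of the list with the smallest unadjusted p were Irs2, Stat3 and Tyk2, each with an adjusted p of 0.391 by edgeR. Irs2, an adaptor of interleukin-4 and insulin signalling, had 39.4, 30.5, 42.9 and 35.3 CPM in labelled knockout 1 to 4, against 25.6, 20.8, 21.5 and 28.7 CPM in wild type 1 to 4, and the groups did not overlap. Stat3, the transcription factor activated by the interleukin-21 receptor among others, had 196, 127, 187 and 152 CPM in labelled knockout 1 to 4, against 91.0, 57.1, 86.8 and 147 CPM in wild type 1 to 4. Only wild type 4 reached the range of the libraries labelled knockout. Tyk2, another kinase of the JAK family, had 59.7, 63.9, 80.6 and 71.1 CPM in labelled knockout 1 to 4, against 57.1, 38.6, 57.0 and 51.7 CPM in wild type 1 to 4, again with no overlap. Jak2, the remaining kinase of that family, had 15 ± 1.57 CPM in the libraries labelled knockout and 15.1 ± 2.92 CPM in wild type (SD, n = 4 each).

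The order of the wild type libraries seen for the kinases recurred in the pathway. Wild type 4 was the highest and wild type 2 the lowest of the 4 wild type libraries for 11 of 23 pathway genes (47.8%), among them Stat3, Stat5b, Crlf2 and Socs1, and for 2 of the 9 members, Jak1 and Jak3 (22.2%). All genes tested gave 20.2%. Without wild type 4, Stat3, Stat5b and Crlf2 passed with log2 fold changes of 1.08, 0.89 and 1.56 (adjusted p = 0.0493 each, edgeR). In that run 363 of 19506 genes tested passed in all. Crlf2 encodes the chain that pairs with Il7r to bind thymic stromal lymphopoietin, and Socs1 an inhibitor of JAK kinases.

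**Figure D5:**
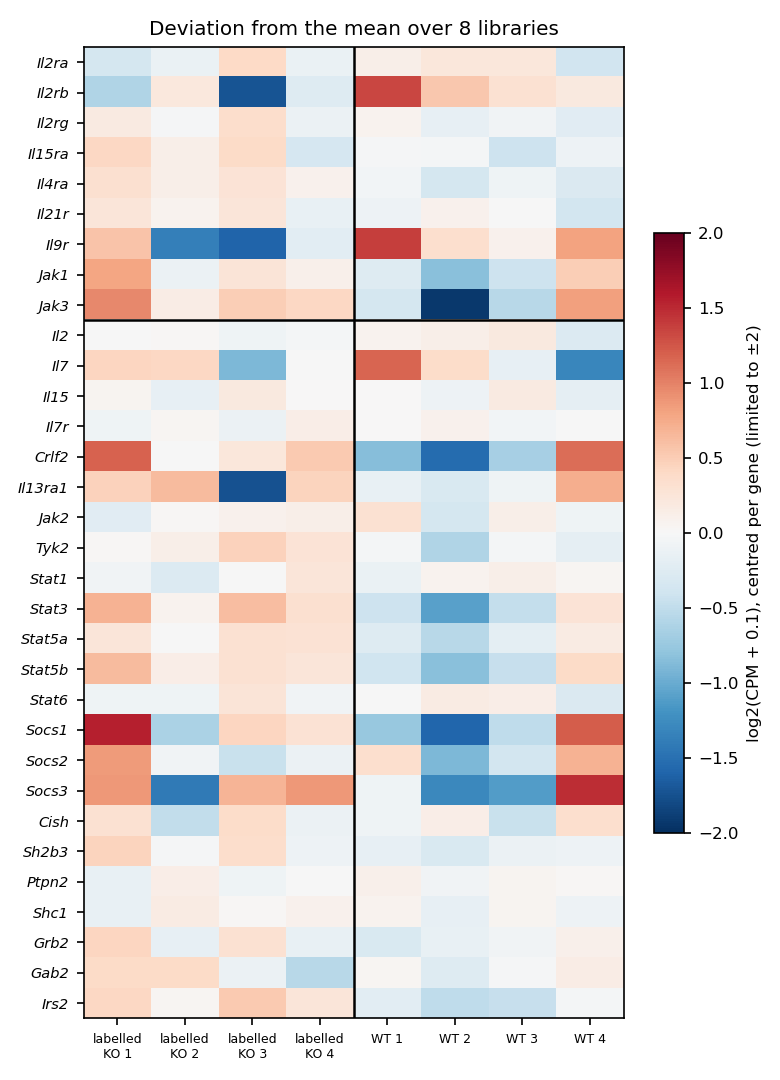
Heat map of log2(CPM + 0.1) centred on each gene's mean over the 8 libraries (limited to 2 either way), with the 9 genes above the line and the 23 tested pathway genes below it, and the libraries labelled knockout left of wild type. Labelled knockout 1 and wild type 4 share high values, and wild type 2 has low values, for Jak1, Jak3, Crlf2, Stat3, Stat5b and Socs1. For Stat3, labelled knockout 3 and 4 also lie above wild type 4.

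The pattern of Il2ra across the libraries was closest to that of Tmbim6, an inhibitor of cell death in the endoplasmic reticulum, among 9167 genes compared. Tmbim6 had 76.4, 88.4, 117 and 91.3 CPM in labelled knockout 1 to 4, against 108, 117, 114 and 72.2 CPM in wild type 1 to 4. Their centred log2 CPM differed by a root mean square of 0.05, where Il2ra itself deviated by 0.27. Gcnt7, Camk2a, Fto and Trp53bp1 followed, at 0.06 to 0.07. As for Il2ra, labelled knockout 3 was the highest library for all 5 genes, and wild type 4 the lowest for all but Trp53bp1, which was lowest in labelled knockout 1.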

How the data were processed

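Counts are the deposited values: whole fragments per gene, made by the authors with featureCounts 2.0.1 from paired reads and GENCODE M25 exons, per the file headers, with every alignment of a multi-mapping fragment counted and no strand setting recorded. Antisense and overlapping genes therefore cannot be told apart. The build was mm10, and the tools named were STAR 2.7.7a and GATK 4.1.9.0, per the submitters' processing notes. Trizol RNA went into SMARTER libraries, per the labels' protocols. The exon length of each gene (unit: other) is an annotation in the deposited table. The table had 0 columns of other samples. Symbols were matched for 55141 identifiers from GENCODE M21, of the same build, and 346 stayed unnamed.

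Genes passing filterByExpr were scaled by TMM and tested with edgeR 4.0.16 (robust quasi-likelihood, two-sided, R 4.3.3) in a model of genotype alone, with p-values adjusted after Benjamini-Hochberg over 18884 genes at 0.05. CPM use TMM-scaled totals, and TPM divide counts by exon length. Libraries of a group differed beyond sampling noise (chi-square per degree of freedom at least 29.5), so none was counted as a copy. Likeness used log2 CPM (prior count 2) of named genes with at least 5 CPM. Named were all members, the ligands, and the 3 pathway and 3 neighbouring genes with the smallest p. Members and lists were chosen with earlier results of these data known. Alternatives used DESeq2 1.42.0, limma 3.58.1, other scalings and filters, a replicate block, a term for Y-linked counts (above or below 5 CPM) and each library left out. The procedure was tested on simulated data with a smaller spread between libraries than here, so its power in these data was not measured.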

Additional observations from a re-analysis of the deposited data

How the results depend on the processing

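Of the 9 members only Il9r was near 0 counts. The number of genes past the adjusted p, 0 in the full data, lay between 0 and 363 when single libraries were left out, the 363 being without wild type 4. For the members it was 0 in each of these settings, for the pathway list it ran from 0 to 3, and for the genes within 500 kb of Il2ra it was 0. Adding the term for Y-linked counts without wild type 4 gave 3112 of 19506 genes tested. Among them were 4 of 9 members, 7 of 23 pathway genes and 2 of 15 genes near Il2ra (Rbm17 and Gm13310). The log2 fold change of Il2ra lay between -0.27 and 0.01 in those settings, and it reversed without wild type 2, at 0.0071 (adjusted p = 0.995). No other member changed sign under any alternative run. Upper quartile factors moved the median of all genes to -0.09, and the members with it. Whether replicate numbers pair the libraries could not be settled with 4 libraries in a group. Same-numbered libraries deviated together with correlations of 0.098, 0.321, 0.196 and -0.107. Labelled knockout 2 and 3 correlated best with their own number while 1 and 4 did not. With the replicate block edgeR called 0 genes. An unadjusted p under 0.05 was then found for 3057 genes and 5 members, against 2388 genes and 2 members without the block. Il9r could not be tested under the stricter filter. Genes with an unadjusted p under 0.05, 2388 in the full data, numbered 1195 to 4277 with single libraries left out, 4646 with the Y-linked term, 3763 with limma-voom and 497 without labelled knockout 1 and 3. For the counts of genes past the adjusted p, the other scalings, filters and tests run also gave 0. Leaving out labelled knockout 1 and 3 together and combining the Y-linked term with leaving out wild type 4 were chosen after seeing the data. The cause of these shifts was not tested.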
